A study of Caenorhabditis elegans with 30 samples.

Results

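Broad autosomal H4K16ac domains were the autosomal ChIP-seq peaks of XX larvae that spanned 10000 bp or more and shared 1 bp or more with a peak of XO larvae. They numbered 776 of the 8734 XX peaks, 7803 of which lay on autosomes. Domains were chosen by their width in XX and their overlap with XO, so these values are given as a description, with no test. All 776 autosomal XX peaks of that width overlapped an XO peak. The series followed H4K16ac and messenger RNA in whole C. elegans L3 larvae of both karyotypes, collected after 24 h on plates.

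H4K16ac was measured in 3 ChIP and 3 input libraries of XO animals that develop as hermaphrodites and carry sdc-2(y74), on the X, together with her-1(e1520), on chromosome V, and in 3 ChIP and 3 input libraries of wild-type N2 XX hermaphrodites. This XO genotype is that of the labels, whereas the study's own list of libraries gives XO ChIP replicates 2 and 3 other strain names, so whether all XO ChIP libraries share it is not settled here. RNA was measured in 4 libraries of XX larvae with the dpy-21(e428) allele, in 5 XO libraries labelled mys-1(RNAi), in 5 XO libraries fed vector RNAi, and in 4 libraries of wild-type N2 XX larvae. Both XO RNA groups carried the same her-1 and sdc-2 alleles and were fed on RNAi plates, so karyotype, strain and food cannot be told apart between XO and XX. DPY-21 is a member of the dosage compensation complex, MYS-1 is the worm homolog of the acetyltransferase Tip60, and her-1 and sdc-2 act in the choice of sexual fate and of dosage compensation.

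Acetylation of lysine 16 on the tail of histone H4 is placed by MYST-family acetyltransferases, such as MOF in flies and Tip60, and weakens the contact between neighbouring nucleosomes. It is best known from the fly male X chromosome, where it spreads over transcribed genes, and in the worm hermaphrodite it is kept low on both X chromosomes by the dosage compensation machinery. Worm autosomes have gene-dense central regions with many housekeeping genes and operons, and arms with more repeats and many recently expanded gene families. In operons, several genes in a row are transcribed together and cut apart by trans-splicing of a short leader RNA onto each message.

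The deposited peak lists were called on all replicates of a background together, and the RNA table holds only the authors' mean RPKM (reads scaled by gene length and by the mapped reads of the library) of each group. No value below therefore has an error between replicates, and depth per library is not known from the files used here. Intervals cover counting error, or the sampling of peaks or genes, and nothing else. The mys-1 RNA averaged 51.7 RPKM where libraries were labelled mys-1(RNAi), 15.7 RPKM in XO vector RNAi and 14.3 RPKM in wild-type XX, so no loss of its message was seen. The RNAi construct carries mys-1 sequence, mys-1 overlaps npa-1 at its end, and reads of these sources cannot be told apart in this value. The study checked depletion on MYS-1 protein, which is not analysed here. The her-1 message averaged 434 RPKM in XO vector RNAi and 1.70 RPKM in wild-type XX. Whole larvae mix all tissues, so fewer cells of a type and less RNA per cell cannot be told apart. All 4 body muscle, 2 pharynx, 4 intestine, 4 hypodermis and 5 neuron markers listed had RNA in wild-type XX, whereas 5 sperm markers summed to 0.512 RPKM and 3 adult yolk markers to 0.410 RPKM there.

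To show what lies at a gene start inside a broad domain, the 200 bases upstream of a gene were read from WBcel235 in the widest domain of chromosomes II, III, IV and V, for the gene with most wild-type XX RNA whose window held no other gene model. The genes were cct-2, a subunit of the TCP-1 chaperonin, dlc-1, a dynein light chain, F21D5.7, the signal recognition particle 54 kDa protein, and pqn-53, a protein with a prion-like domain. The sequences are given on the strand of the gene, 5′ to 3′, and end at the base before the annotated start. Capitals mark TTTCAG, the 3′ splice acceptor that trans-splicing uses in worms.
cct-2 upstream, chrII:8927541-8927740, plus strand: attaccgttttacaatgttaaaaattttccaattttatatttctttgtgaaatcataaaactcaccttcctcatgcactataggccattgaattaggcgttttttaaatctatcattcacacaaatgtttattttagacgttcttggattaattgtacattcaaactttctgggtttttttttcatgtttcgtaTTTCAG
dlc-1 upstream, chrIII:6463780-6463979, minus strand: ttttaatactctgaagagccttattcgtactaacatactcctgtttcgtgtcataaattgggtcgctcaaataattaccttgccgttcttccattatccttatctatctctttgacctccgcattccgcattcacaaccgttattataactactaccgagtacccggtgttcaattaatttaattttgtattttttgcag
F21D5.7 upstream, chrIV:8743705-8743904, minus strand: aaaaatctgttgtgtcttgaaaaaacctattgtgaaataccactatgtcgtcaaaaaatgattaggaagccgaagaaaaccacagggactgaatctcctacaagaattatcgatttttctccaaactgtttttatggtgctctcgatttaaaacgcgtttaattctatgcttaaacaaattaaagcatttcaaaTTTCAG
pqn-53 upstream, chrV:12065392-12065591, minus strand: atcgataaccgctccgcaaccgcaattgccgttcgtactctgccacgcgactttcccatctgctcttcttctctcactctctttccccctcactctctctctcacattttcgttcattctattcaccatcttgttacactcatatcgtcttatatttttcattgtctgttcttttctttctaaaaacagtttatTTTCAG
In cct-2, F21D5.7 and pqn-53 the window ended in the splice acceptor itself. The dlc-1 window ended in cag without the preceding letters of the motif. A search of all 3793 upstream windows in domains found TTTCAG on the sense strand in 32.6% (31.1 to 34.1), against 26.9% of 16942 autosomal windows. The window ended in TTTCAG for 817 domain genes, or 21.5% (20.3 to 22.9), against 12.4% of all autosomal genes and 6.98% of those that start outside every XX peak. TATAAA on the sense strand, the letters of a TATA box, was in 15.6% of domain windows against 19.7% of all autosomal windows. GAGAGA on either strand was in 18.5% against 16.2%, CACGTG on either strand in 3.56% against 4.36%, and a run of TTTTTTTT on either strand in 22.8% against 26.4%. Most of these shares were similar for genes starting in autosomal XX peaks of 5 to 10 kb that overlapped an XO peak, called shared peaks below. Their windows held TTTCAG in 31.6% (29.5 to 33.8) and ended in it in 18.8% (17.1 to 20.7). TATAAA was in 14.6% of them, GAGAGA in 18.9%, CACGTG in 2.89% and the T run in 28.2%. The end of a T run can coincide with the start of TTTCAG, and a match is only a description of the letters.

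The width of the domains ranged widely. The narrowest spanned 10032 bp, the median was 14505 bp and the widest spanned 101508 bp, with 205 domains of 20 kb or more and 14 of 50 kb or more. Domains were 9.94% of the autosomal XX peaks but held 47.7% of the autosomal XX peak sequence, or 13730676 of 28795331 bp, and 16.6% of the autosomes. Just inside the limit lay peaks of 10032, 10039 and 10058 bp, and just outside it lay peaks of 9993, 9986 and 9970 bp.

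**Figure D1:**
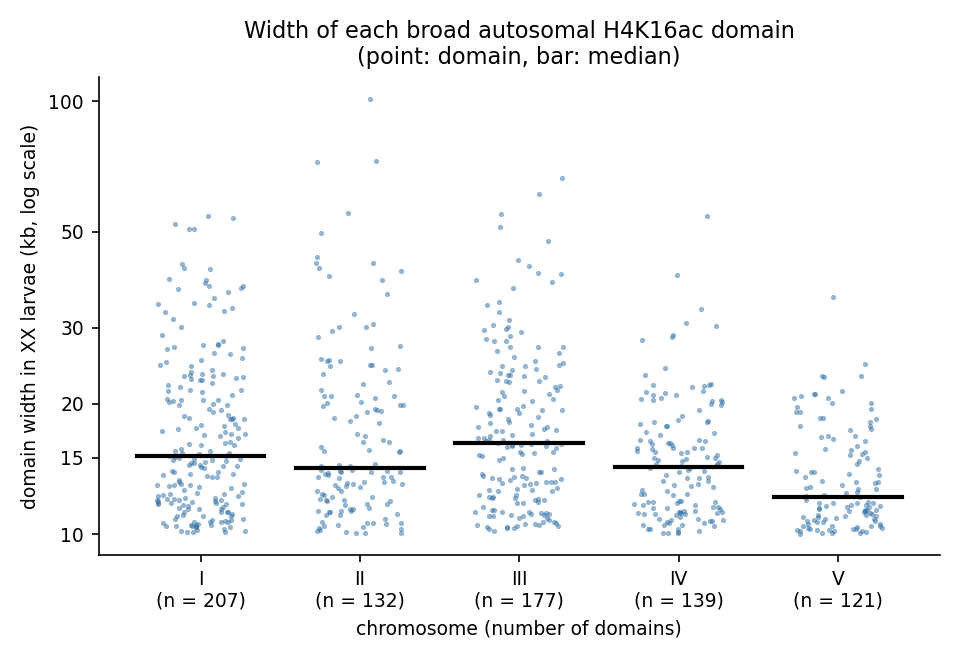
Width of each of the 776 broad domains in XX larvae (y axis, kb on a log scale) by autosome (x axis), with a point per domain and a bar at the median. Median widths lay between 12217 bp on chromosome V and 16203 bp on chromosome III, and the widest domain of all, 101508 bp, was on chromosome II.

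Domains were unevenly placed among the autosomes. Chromosome I held 207 of them and chromosome III 177, covering 25.7% and 24.6% of their length. Chromosome II held 132 and chromosome IV 139, covering 17.0% and 12.5%. Chromosome V, the longest autosome, held 121 and was covered over 8.05%, and its domains were also the narrowest, with a median of 12217 bp. The share of protein-coding genes that started in a domain was 36.6% on chromosome III, 36.3% on chromosome I and 9.47% on chromosome V. Within a chromosome, 407 domains, or 52.4% (48.9 to 55.9), had their middle in the central 33.3% of its length. The corresponding share was 40.5% for shared peaks of 5 to 10 kb and 34.0% for shared peaks of 2 to 5 kb. By chromosome it ranged between 46.3% on III and 61.4% on II.

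The 10 widest domains show what kind of genes these stretches contain. The widest, chrII:8873914-8975421, held 22 protein-coding gene starts, 21 of them above 1 RPKM in wild-type XX. Its highest named genes were enol-1, the glycolytic enzyme enolase, cct-2, and tomm-40, the channel of mitochondrial protein import. It also held rha-1, an RNA helicase that the study depleted in another experiment. Enol-1 averaged 430 RPKM in dpy-21(e428) XX, 626 RPKM in XO labelled mys-1(RNAi), 621 RPKM in XO vector RNAi and 457 RPKM in wild-type XX, so both XO means were above both XX means.

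The next 2 by width were also on chromosome II. That at chrII:7087840-7160573, of 72734 bp, contained rpl-33, a protein of the large ribosomal subunit. That at chrII:7833157-7905534, of 72378 bp, contained vha-4, a subunit of the vacuolar proton pump, and ostb-1, a subunit of the oligosaccharyltransferase that glycosylates secreted proteins. A further one of the 10 on this chromosome, chrII:11647192-11702379, of 55188 bp, held the proteasome subunit gene rpn-12, the proteasome shuttle factor gene rad-23, the threonyl-tRNA synthetase gene tars-1 and trr-1, a member of the Tip60 complex.

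On chromosome III, the domain at chrIII:6407483-6473907 spanned 66425 bp and held dlc-1 and mel-32, a serine hydroxymethyltransferase. The domain at chrIII:9774745-9835718, of 60974 bp, had the most gene starts of any domain, 23, with 22 above 1 RPKM. Among these were vha-2 and vha-1, subunits of the proton pump, cnx-1, the chaperone calnexin, and mcm-6, a subunit of the replicative helicase. The domain at chrIII:5676021-5730953, of 54933 bp, held rpl-23, rps-12 and the vesicle-traffic GTPase gene arf-1.2. The remaining members of the widest 10 were chrIV:8735102-8789452 with mrps-33 and the kinesin gene klp-11, chrI:8280282-8334559 with rpl-25.2 and the casein kinase subunit gene kin-10, and chrI:7206271-7259913 with the purine enzyme gene adsl-1 and the moulting receptor gene nhr-23. In these last 3 domains the median gene had 4.7, 8.6 and 6.9 RPKM in wild-type XX, the lowest medians of the 10, against 25.2 RPKM in the widest domain.

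Most of the sequence of a domain was also acetylated in XO larvae. Of the whole 776 domains, 91.4% of the sequence lay inside XO peaks, and the median domain was covered over 93.1% (92.4 to 93.8). XO peaks covered 37.1% of the autosomes and XX peaks covered 34.9%. More than 90% of the width was inside XO peaks in 486 domains, or 62.6% (59.2 to 66.0), and the share over all autosomal XX peaks was 39.0%. Shared peaks of 5 to 10 kb had a median cover of 89.0% and passed 90% in 47.3% of cases, those of 2 to 5 kb had 79.3% and 36.3%, and those under 2 kb had 87.9% and 48.7%. Wide and narrow peaks do not have the same room for partial cover, and overlap was part of the rule, so nothing was read from the order.

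**Figure D2:**
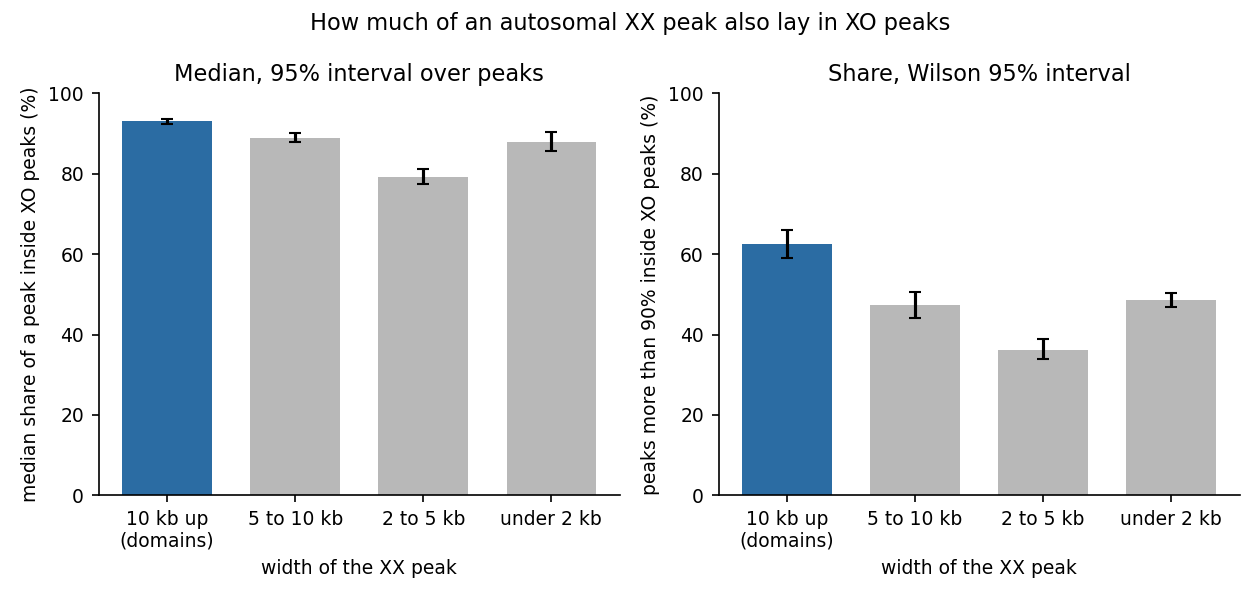
Share of an autosomal XX peak that lay inside XO peaks, by width of the XX peak (x axis), with the median in percent on the left and the share of peaks covered over more than 90% on the right. Bars start at 0 and error bars are 95% intervals. Domains, in blue, had a median of 93.1%, and shared peaks of 2 to 5 kb had the lowest, 79.3%.

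Domains were more often broken up in the XO list than carried over as a single peak. A single XO peak overlapped 262 domains, or 33.8%, the median domain met 2 XO peaks, and the maximum was 11. The single-peak share was 54.3% in shared peaks of 5 to 10 kb, 66.1% in those of 2 to 5 kb and 95.7% in those under 2 kb. Domains were picked as wide single peaks in XX, with no rule on width in XO. Nothing about XO was therefore read from these breaks. In 81 domains no base fell outside XO peaks. The longest uncovered stretch within a domain had a median of 771 bp and reached 3934 bp. The 2 widest domains met 10 and 11 XO peaks, and chrIII:8652668-8680566, of 27899 bp, met 9. In contrast, the 60974 bp domain with the 23 genes lay inside 1 XO peak of 94142 bp, the widest autosomal XO peak, over 99.9% of its length.

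Of the 689 autosomal XO peaks of 10 kb or more, 582, or 84.5%, touched a domain, and 552 domains, or 71.1%, contained or met such a peak. In all, 1728 of 11809 autosomal XO peaks touched a domain and 32 of them spanned more than 1, at most 3. The outermost XO edge lay within 500 bp of the XX edge at 785 of the 1552 domain edges, or 50.6%. It lay more than 1 kb beyond the XX edge at 396 edges, or 25.5%, and stopped more than 1 kb short of it at 85 edges, or 5.48%. The median offset was 52.5 bp outward.

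Only 5 domains had under 50% of their width in XO peaks. The lowest cover, 38.5%, was at chrV:5115659-5127443, which holds the start of sid-1, the double-stranded RNA channel needed for systemic RNAi. The sid-1 message averaged 4.13 RPKM in dpy-21(e428) XX, 5.12 RPKM in XO labelled mys-1(RNAi), 4.66 RPKM in XO vector RNAi and 4.33 RPKM in wild-type XX, a narrow range in the 4 groups. The next lowest covers were 43.3% at chrV:2248187-2258734, with the cytochrome P450 genes cyp-33C7 and cyp-33C6 and the chemoreceptor gene str-253, and 44.5% at chrV:18105725-18116307, with a TATDN2-like deoxyribonuclease gene, Y37H2A.1. All 3 were on chromosome V, where the median cover of 121 domains was 89.9%, against 91.4% to 94.7% on the other autosomes.

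Gene starts were closer together inside domains than outside every XX peak. Of 16942 autosomal protein-coding genes with an RPKM value, 3793 started in a domain, or 22.4%, on 16.6% of the sequence. This came to 2.76 starts per 10 kb (2.68 to 2.85), against 2.59 (2.47 to 2.72) in shared peaks of 5 to 10 kb, where the intervals overlapped. The density was 2.41 in shared peaks of 2 to 5 kb, 1.73 in those under 2 kb and 1.79 outside every XX peak. The median domain had 4 gene starts and the maximum was 23. No protein-coding gene with a value started in 19 domains, and a single gene started in 73.

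The profile over domain edges shows where this density begins. In the 5 kb outside an edge, there were between 1.67 and 2.06 starts per 10 kb. The first kb inside had 2.01, the next had 2.67, and the following 3 had between 2.84 and 2.87. XO cover followed the same edge, with 43.7% of the sequence in the last kb outside, 76.0% in the first kb inside and 94.5% in the fifth. XX peaks covered 9.87% of that last outside kb, because neighbouring XX peaks in the list stood at least 589 bp apart. Gene bodies ran over 1114 of the 1552 edges, or 71.8% (69.5 to 74.0), while bodies made up 75.6% of domain sequence and 63.9% of autosomal sequence. Of the genes that started in a domain, 3159, or 83.3%, also ended in it.

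**Figure D3:**
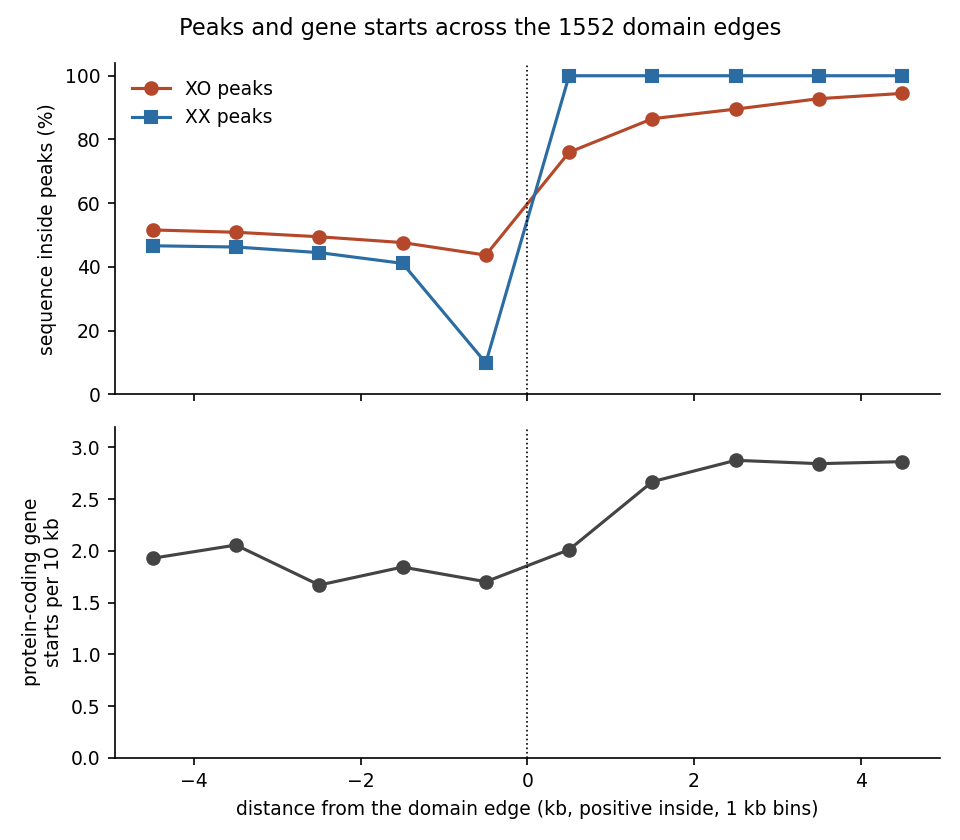
Share of sequence inside XO and XX peaks (top, percent) and protein-coding gene starts per 10 kb (bottom) in 1 kb bins by distance from the domain edge, positive inside, over 1552 edges. XO cover was 43.7% in the last kb outside and 94.5% in the fifth kb inside, and gene starts reached 2.87 per 10 kb inside, against at most 2.06 outside.

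Many domain genes lay close behind another gene on the same strand, as genes in operons do, or overlapped it. For 1231 domain genes, or 32.5% (30.98 to 33.96), the upstream same-strand neighbour ended no more than 500 bp before the start or ran past it. Overlapping genes were thus counted and were not separated from spaced ones. This spacing was found for 25.6% of genes in shared peaks of 5 to 10 kb, 21.1% in those of 2 to 5 kb, 16.5% outside every XX peak and 21.5% of all autosomal genes. The share was 28.6% (26.2 to 31.2) in domains of 10 to 15 kb, 32.9% in those of 15 to 20 kb, 35.1% (32.7 to 37.5) in those of 20 to 50 kb and 34.6% in the 14 domains of 50 kb or more. Gene starts were also denser in domains, and the part of density in these shares was not tested.

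For illustration, the sequence between a pair of such neighbours with high RNA was read on the same 4 autosomes. The pairs were R53.4, a putative subunit of mitochondrial ATP synthase, and R53.2, the thymidylate kinase; rpl-6 and R151.2, a ribose-phosphate diphosphokinase; rpl-20 and cyc-2.1, cytochrome c; and fib-1, the nucleolar methyltransferase fibrillarin, and rps-16. Each sequence runs from the end of the upstream gene to the start of the downstream gene, 5′ to 3′ on their strand, with TTTCAG in capitals.
R53.4 to R53.2, chrII:9967100-9967276, minus strand: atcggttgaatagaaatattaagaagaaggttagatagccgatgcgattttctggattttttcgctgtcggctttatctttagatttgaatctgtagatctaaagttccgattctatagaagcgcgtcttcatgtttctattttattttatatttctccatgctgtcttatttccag
rpl-6 to R151.2, chrIII:7209790-7209966, plus strand: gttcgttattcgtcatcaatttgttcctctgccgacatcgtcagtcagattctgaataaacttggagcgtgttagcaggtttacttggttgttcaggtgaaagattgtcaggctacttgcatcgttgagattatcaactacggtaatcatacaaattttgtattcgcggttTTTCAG
rpl-20 to cyc-2.1, chrIV:4749013-4749122, minus strand: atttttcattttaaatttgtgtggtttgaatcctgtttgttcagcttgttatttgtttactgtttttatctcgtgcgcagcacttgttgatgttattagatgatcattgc
fib-1 to rps-16, chrV:15000542-15000650, minus strand: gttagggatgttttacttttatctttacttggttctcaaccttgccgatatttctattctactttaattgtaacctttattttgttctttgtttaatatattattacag
The gaps measured 177, 177, 110 and 109 bases. The downstream R151.2 averaged 141 RPKM in dpy-21(e428) XX, 165 RPKM in XO labelled mys-1(RNAi), 142 RPKM in XO vector RNAi and 297 RPKM in wild-type XX. Its upstream neighbour rpl-6 averaged 5985 RPKM in dpy-21(e428) XX, 5580 RPKM in XO labelled mys-1(RNAi), 5584 RPKM in XO vector RNAi and 5076 RPKM in wild-type XX, so the wild-type mean was the highest of the 4 for R151.2 and the lowest for rpl-6. For the fib-1 and rps-16 pair, rps-16 averaged 6446 RPKM in dpy-21(e428) XX, 4339 RPKM in XO labelled mys-1(RNAi), 4567 RPKM in XO vector RNAi and 5716 RPKM in wild-type XX. Fib-1 averaged 748 RPKM in dpy-21(e428) XX, 550 RPKM in XO labelled mys-1(RNAi), 627 RPKM in XO vector RNAi and 724 RPKM in wild-type XX. Here the 4 means of both genes stood in the same order.

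Base composition set domains apart only slightly. The median GC content of a domain was 36.3% (36.1 to 36.4), against 36.0% in shared peaks of 5 to 10 kb, 35.3% in those of 2 to 5 kb, 34.9% in those under 2 kb and 33.5% in XX peaks without an XO peak. With protein-coding exons left out, it was 32.2%. The soft-masked share, which marks repeats in the reference, had a median of 28.3% (27.6 to 29.0) in domains, against 31.6% and 35.3% in shared peaks of 5 to 10 kb and 2 to 5 kb.

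Genes in domains were mostly transcribed in L3 larvae. In wild-type XX, 3361 of the 3793 genes, or 88.6% (87.6 to 89.6), were above 1 RPKM, and this share was 61.8% over all autosomal genes. It was 87.8% in shared peaks of 5 to 10 kb, 85.5% in those of 2 to 5 kb, 69.8% in those under 2 kb and 43.4% outside every XX peak. The median domain gene had 17.0 RPKM (16.03 to 17.91) in wild-type XX, against 16.8 RPKM in shared peaks of 5 to 10 kb, 14.0 RPKM in those of 2 to 5 kb and 0.441 RPKM outside every XX peak. The intervals of domains and of the 5 to 10 kb peaks overlapped for both measures.

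RNA levels were much alike across domain widths. The median gene had 16.3 RPKM in domains of 10 to 15 kb, 17.1 RPKM in those of 15 to 20 kb, 17.2 RPKM in those of 20 to 50 kb and 16.6 RPKM in those of 50 kb or more, all within each other's intervals. In the other groups the median domain gene had 16.5 RPKM in dpy-21(e428) XX, 20.1 RPKM in XO labelled mys-1(RNAi) and 19.6 RPKM in XO vector RNAi. All genes were above 1 RPKM in 463 domains, some but not all in 287, and none in 7 that had gene starts.

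Highly expressed genes were common in domains. Above 100 RPKM in wild-type XX were 502 domain genes, or 13.2%, against 6.52% of all autosomal genes. The share above 100 RPKM was 11.6% in shared peaks of 5 to 10 kb, 7.44% in those of 2 to 5 kb and 3.02% outside every XX peak. Of the 158 autosomal genes above 1000 RPKM, 82 started in a domain. The 10 with most RNA were 7 genes for cytosolic ribosomal proteins (rpl-13, rps-25, Y37E3.8, rpl-27, rpl-41, rpl-36 and rpl-23), F54D7.7, eef-1A.1, the elongation factor that brings aminoacyl-tRNA to the ribosome, and Y82E9BR.3, the c subunit of ATP synthase. F54D7.7 is annotated as a ribosomal protein L41 gene and had the highest mean, 10395 RPKM in wild-type XX, but it has a near-identical copy among which reads may be divided, so its level is uncertain. Rps-25 averaged 8289 RPKM in dpy-21(e428) XX, 6823 RPKM in XO labelled mys-1(RNAi), 6744 RPKM in XO vector RNAi and 7897 RPKM in wild-type XX. Eef-1A.1 averaged 7886 RPKM in dpy-21(e428) XX, 7478 RPKM in XO labelled mys-1(RNAi), 7442 RPKM in XO vector RNAi and 6751 RPKM in wild-type XX, with wild-type XX lowest.

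Genes whose start fell outside XO peaks formed a small and less expressed part of the domains. The parts without XO cover are called gaps here and include uncovered domain ends. The first kb inside an edge had 76.0% XO cover and 2.01 starts per 10 kb, and gaps and edges were not separated. There were 195 such genes, or 5.14% of domain genes on 8.62% of domain sequence, which gave 1.65 starts per 10 kb in gaps and 2.87 in the parts covered by XO peaks. Above 1 RPKM in wild-type XX were 75.9% (69.4 to 81.4) of the genes in gaps and 89.3% (88.3 to 90.3) of those in covered parts. Their median was 8.53 RPKM in gaps and 17.4 RPKM in covered parts, and in XO vector RNAi it was 10.9 and 19.9 RPKM.

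Gene families differed widely in the share of their members that started in domains. Aminoacyl-tRNA synthetases, which charge tRNAs, had 24 of 32 genes in domains, proteasome subunits 23 of 32, splicing factors 18 of 27, translation factors 17 of 26 and DNA replication genes 14 of 22. Cytosolic ribosomal proteins had 47 of 74 in 42 separate domains, and all the other 27 started in narrower XX peaks. Chaperones had 29 of 52, among them cct-1, cct-2, cct-4, cct-6 and cct-7 of the chaperonin and hsp-1, and respiratory chain and ATP synthase genes had 11 of 20. All of these shares, between 55.0% and 75.0%, stood above the 22.4% of all autosomal genes. Most members outside domains started in narrower XX peaks. These held 9 proteasome, 8 DNA replication, 8 translation factor, 7 splicing and 6 synthetase genes, and 0, 0, 1, 2 and 2 started in no XX peak. For chaperones the counts were 18 and 5, and for respiratory genes 7 and 2.

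Ribosomal and proteasome genes had nearly the same RNA level in and out of domains. The 47 ribosomal genes in domains had a median of 4411 RPKM in wild-type XX and the other 27 had 4440 RPKM. The 23 proteasome genes had 152 RPKM in domains and the other 9 had 190 RPKM. Among synthetases, the 24 genes in domains had 76.4 RPKM and the other 8 had 24.99 RPKM. The exceptions to high expression within these lists were rpl-42, at 0.0610 RPKM, and rpn-6.2, at 1.36 RPKM, both in domains. Of the chaperones, hsp-16.1, hsp-16.48 and hsp-16.49, small heat shock genes with near-identical copies, were listed at 0 in wild-type XX inside domains.

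Most listed families used in restricted tissues or in response to the surroundings had few members in domains, beside the 22.4% of all autosomal genes. Germ line P granule and meiosis genes differed, with 7 of 20, or 35.0% (18.1 to 56.7), in domains, an interval that held 22.4%. Chemoreceptors named sr or str had 9 of 1259, or 0.715%, and none of the 9 was above 1 RPKM. C-type lectins had 7 of 236, nuclear hormone receptors 11 of 244, F-box A and B proteins 14 of 257, neuropeptides and insulins 7 of 88, cuticle collagens named col 15 of 129, detoxification genes of the cytochrome P450, UGT and glutathione transferase families 20 of 170, and major sperm proteins 1 of 31. Narrower XX peaks held 59 of the nuclear hormone receptors and 34 of the chemoreceptors, and 174 and 1216 started in no XX peak. None of the 6 Hox genes, which pattern the body axis, started in any XX peak. Homeobox genes named ceh had 7 of 46, with ceh-20, a Hox cofactor, highest at 56.3 RPKM in wild-type XX. Of the tissue markers, snb-1, a synaptic vesicle protein, and the germ line genes glh-1 and gld-1 started in domains, and none of the autosomal muscle, intestine, hypodermis or pharynx markers did. The markers myo-2, elt-2 and dpy-7 lie on the X, where no autosomal domain could hold them.

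**Figure D4:**
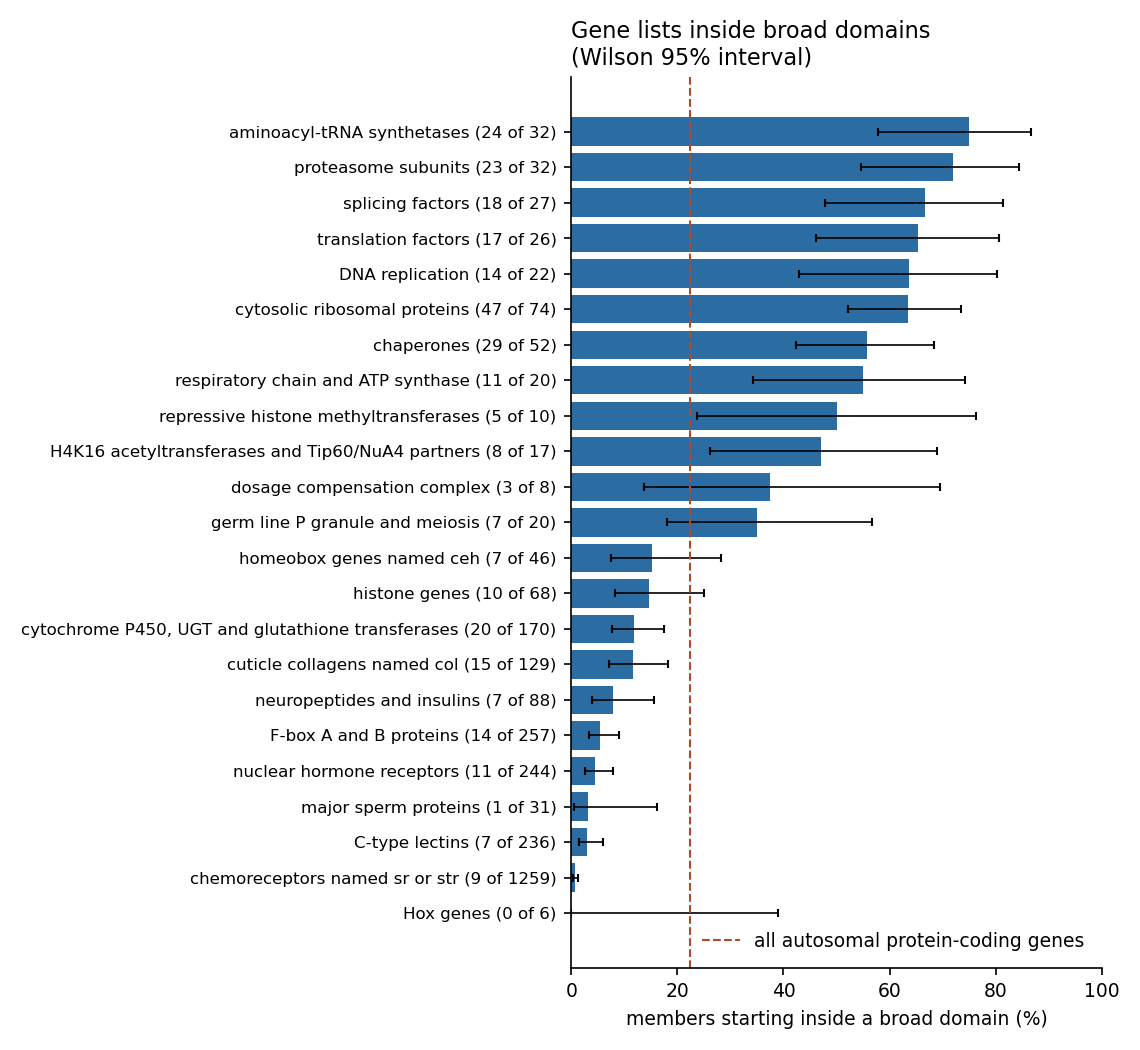
Share of each gene list that started in a broad domain (x axis, percent), with its count and list size beside the name and Wilson 95% intervals. The dashed line is the share of all autosomal protein-coding genes, 22.4%. Lists for translation, protein quality control, splicing and DNA replication stood above it, and those for receptors, lectins and sperm proteins below it.

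Genes that act on chromatin, and those of the germ line list, were found on both sides. The list of H4K16 acetyltransferases and Tip60 partners had 8 of 17 genes in domains, including cbp-1, an acetyltransferase and co-activator, mys-4, trr-1, ruvb-1 and hda-1, a deacetylase. Mys-1 and mys-2 started outside every XX peak. Of the dosage compensation complex, 3 of 8 autosomal genes, dpy-30, mix-1 and capg-1, started in domains, and dpy-21 started outside every XX peak. Repressive histone methyltransferases had 5 of 10 in domains, among them met-2, set-1, set-4 and mes-2. Germ line P granule and meiosis genes had 7 of 20. These 4 lists are small and the intervals of their shares were wide. They were 26.2 to 69.0% for the acetyltransferases and 23.7 to 76.3% for the methyltransferases. For the complex the interval was 13.7 to 69.4%, and for the germ line list 18.1 to 56.7%. Both of these last intervals held the 22.4% of all autosomal genes, and the lower ends of the others stood just above it.

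Of the histone genes, which are mostly in tandem clusters with near-identical copies, 10 of 68 started in 5 domains. His-72, a replacement H3 histone, averaged 537 RPKM in dpy-21(e428) XX, 546 RPKM in XO labelled mys-1(RNAi), 505 RPKM in XO vector RNAi and 371 RPKM in wild-type XX, where it was lowest. His-35, his-37 and his-41 shared a domain of 16730 bp and had between 317 and 440 RPKM in wild-type XX. Other histone genes had a median of 0 RPKM in that group.

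Noncoding genes also differed in how many lay in domains. For comparison, 22.3% of annotated autosomal protein-coding genes and 17.9% of genes typed as ncRNA started in a domain, and domains covered 16.6% of the autosomes. Genes for miRNAs had 65 of 187, or 34.8%, and snoRNAs, which often sit in introns of translation genes, had 107 of 313, or 34.2%. Genes for tRNAs had 32 of 336, or 9.52%, and pseudogenes 103 of 1950, or 5.28%. Of the 15201 autosomal piRNA genes, 233 started in a domain. Most piRNA genes lie on chromosome IV, where 143 of 14714, or 0.972%, did so, although domains covered 12.5% of that chromosome.

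RNA in dpy-21(e428) XX differed little from wild-type XX for genes in domains. Ratios were taken as log2((RPKM + 1)/(RPKM + 1)) of the group means, for genes whose mean of both groups was above 1 RPKM, and past 1.5-fold on this scale was counted. Of 3373 domain genes, 105, or 3.11% (2.58 to 3.75), were more than 1.5-fold higher, and this share was 9.49% over all 10631 autosomal genes. The share more than 1.5-fold lower was 3.53% (2.96 to 4.21), against 7.54% over all. The median log2 ratio was -0.02 (-0.03 to -0.01) in domains and -0.02 over all autosomal genes.

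In XO vector RNAi over wild-type XX, 477 of 3424 domain genes, or 13.9%, were more than 1.5-fold higher, against 23.5% of all 10966 autosomal genes. More than 1.5-fold lower were 106, or 3.10%, against 8.02%. The median log2 ratio was 0.15 (0.14 to 0.17) in domains and 0.18 over all autosomal genes. Relative to that overall shift, the domain median was -0.02. This comparison and that of dpy-21(e428) share the wild-type XX libraries.

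Domain genes whose start fell in a gap in XO cover had a median log2 ratio of 0.20 (0.13 to 0.31) in this comparison. It was 0.15 (0.14 to 0.17) for those in covered parts. Of the 156 gap genes that passed the filter, 23.1% were more than 1.5-fold higher and 8.33% more than 1.5-fold lower, against 13.5% and 2.85% of 3268 genes in covered parts. Both shares were thus larger in gaps, where RNA levels were also lower.

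Summed levels of tissue markers differed between the groups too. The 4 body muscle markers summed to 1182 RPKM in dpy-21(e428) XX, 2301 RPKM in XO labelled mys-1(RNAi), 2426 RPKM in XO vector RNAi and 1289 RPKM in wild-type XX. The 2 pharynx markers summed to 112 RPKM in dpy-21(e428) XX, 256 RPKM in XO labelled mys-1(RNAi), 301 RPKM in XO vector RNAi and 68.3 RPKM in wild-type XX. All 6 of these markers were higher in XO vector RNAi than in wild-type XX. The 4 intestine markers summed to 2816 RPKM in XO vector RNAi and 2748 RPKM in wild-type XX, and the 5 neuron markers summed to 600.04 RPKM in XO vector RNAi and 512 RPKM in wild-type XX. Asp-1 made up most of the intestine sums, with 2688 and 2636 RPKM. Unlike the other intestine and neuron markers, elt-2 and snb-1 were lower in XO vector RNAi. Elt-2 had 15.8 RPKM there against 22.9 RPKM in wild-type XX, and snb-1 had 225 against 244 RPKM. The part of tissue make-up in the ratios of domain genes was not tested.

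In XO labelled mys-1(RNAi) over XO vector RNAi, 35 of 3465 domain genes, or 1.01%, were more than 1.5-fold higher, against 2.44% of all 11267 autosomal genes, and 9, or 0.260%, were more than 1.5-fold lower, against 0.604%. The median log2 ratio was 0.02 in domains and 0.03 over all autosomal genes. The vector libraries are shared with the comparison before it. In all 3 comparisons the share past 1.5-fold was higher for genes outside every XX peak, for example 33.6% higher and 13.7% lower in XO vector RNAi.

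**Figure D5:**
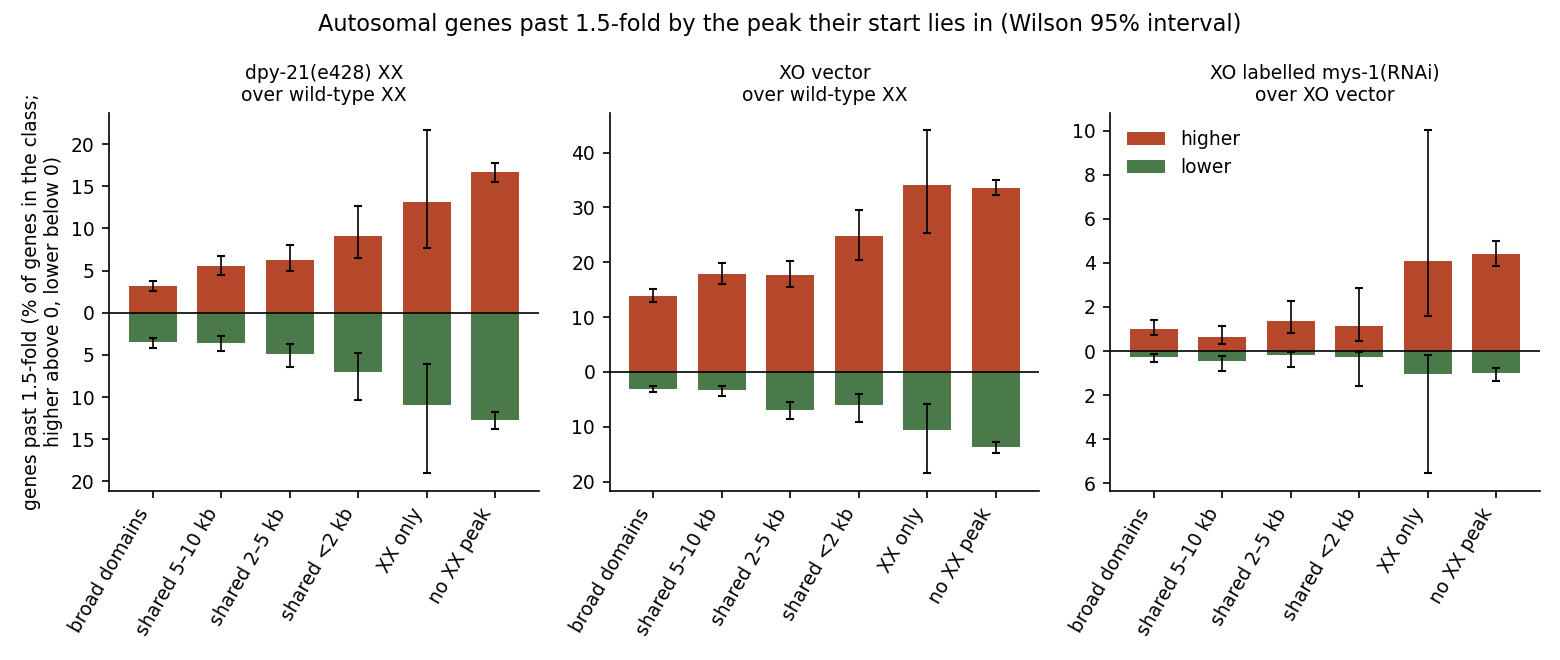
Share of autosomal genes more than 1.5-fold higher (red, above 0) or lower (green, below 0), in percent, by the kind of peak the gene start lay in, for the 3 RNA comparisons on separate axes. Error bars are Wilson 95% intervals. In broad domains 3.11% and 3.53% were higher and lower in dpy-21(e428) XX, 13.9% and 3.10% in XO vector RNAi, and 1.01% and 0.260% in XO labelled mys-1(RNAi), against 16.6% and 12.7%, 33.6% and 13.7%, and 4.39% and 1.01% of genes in no XX peak.

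Domain genes had more RNA than other genes, so the shares were also taken within bands of the mean RPKM of both groups, a choice made after seeing the data. Above 100 RPKM, 9.96% (7.66 to 12.9) of 512 domain genes were more than 1.5-fold higher in XO vector RNAi, against 20.3% (17.4 to 23.6) of 639 genes outside domains, and 5.86% against 19.2% were lower. In the 5 to 20 RPKM band, 14.5% of 1186 domain genes were higher against 27.4% of 2632 genes outside, and 1.26% against 9.54% were lower. For dpy-21(e428), 2.49% of 1206 domain genes in the 5 to 20 RPKM band were higher against 12.7% of 2565 outside. In each of the 4 bands of the 3 comparisons, the share was smaller in domains than outside, in both directions. In XO labelled mys-1(RNAi), the lower shares rested on 1 to 3 domain genes per band, and their intervals overlapped those outside. The intervals of the higher shares in XO labelled mys-1(RNAi) also overlapped in the 1 to 5 RPKM band and above 100 RPKM. Above 100 RPKM the same held for the higher share in dpy-21(e428) XX, with 3.84% (2.47 to 5.92) in domains against 7.67% (5.78 to 10.1) outside. Genes in shared peaks of 5 to 10 kb, not split by band, were nearer to domains than those in no XX peak. Higher and lower were 5.48% and 3.55% in dpy-21(e428) XX, 17.9% and 3.3% in XO vector RNAi, and 0.627% and 0.439% in XO labelled mys-1(RNAi). That 0.627% was below the 1.01% of domains.

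Proteasome genes in domains mostly had lower means than in wild-type XX. In dpy-21(e428) XX over wild-type XX, 22 of 23 proteasome genes in domains had a ratio below 0, with a median log2 ratio of -0.39, and none passed 1.5-fold. Over all autosomal genes, 47.9% had a ratio above 0 in dpy-21(e428) XX and 65.3% in XO vector RNAi. In XO vector RNAi, 22 of 23 were also below 0, with a median of -0.37, and 4, namely pas-4, pbs-2, pbs-5 and pas-1, were more than 1.5-fold lower, against 8.02% of all autosomal genes. The 9 proteasome genes outside domains had medians of -0.40 and -0.51. Pbs-5, a subunit of the catalytic core, averaged 194 RPKM in dpy-21(e428) XX, 165 RPKM in XO labelled mys-1(RNAi), 162 RPKM in XO vector RNAi and 254 RPKM in wild-type XX, so all 3 other means were below the wild-type mean.

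Ribosomal protein genes in domains went the other way in dpy-21(e428) XX, with all 46 that passed the filter above 0 and a median log2 ratio of 0.21, but none past 1.5-fold, whereas 47.9% of all autosomal genes were above 0. In XO vector RNAi over wild-type XX, 17 were above 0 and 29 below, with a median of -0.05, whereas 65.3% of all autosomal genes were above 0, and rpl-18 alone was more than 1.5-fold lower. Rpl-18 averaged 5570 RPKM in dpy-21(e428) XX, 3156 RPKM in XO vector RNAi and 4962 RPKM in wild-type XX. Synthetase genes had medians of -0.16 in dpy-21(e428) XX and 0.15 in XO vector RNAi, and DNA replication genes 0.20 and 0.29. The 27 ribosomal genes outside domains had medians of 0.20 and -0.07 in these 2 comparisons, close to those in domains. Outside domains, the 8 synthetase genes had -0.16 and 0.03, and the 8 DNA replication genes 0.19 and 0.19. Of 26 chaperone genes, 1 was more than 1.5-fold higher in dpy-21(e428) XX and 3 in XO vector RNAi, against 9.49% and 23.5% of all autosomal genes. In XO labelled mys-1(RNAi) over vector, the medians of these 5 lists lay between -0.03 and 0.05.

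Some other lists had more members past 1.5-fold. Of 6 col collagen genes in domains that passed the filter, 4 were more than 1.5-fold lower in dpy-21(e428) XX, against 7.54% of all autosomal genes. In XO vector RNAi, 4 were lower and 2 higher, against 8.02% and 23.5% of all autosomal genes. Of 18 detoxification genes, 9 were higher in XO vector RNAi and 1 was lower, against the same 23.5% and 8.02%. Gst-4, a glutathione transferase, averaged 13.8 RPKM in dpy-21(e428) XX, 63.1 RPKM in XO labelled mys-1(RNAi), 56.7 RPKM in XO vector RNAi and 13.6 RPKM in wild-type XX. Both XO means of gst-4 were well above both XX means. Nhr-23 averaged 42.8 RPKM in dpy-21(e428) XX, 46.6 RPKM in XO labelled mys-1(RNAi), 53.9 RPKM in XO vector RNAi and 22.3 RPKM in wild-type XX, where it was lowest.

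The domain genes furthest from the wild-type mean were named by their size of difference. Among domain genes whose mean of both groups was above 10 RPKM, the 5 highest in dpy-21(e428) XX were T10H9.8, an EF-hand protein, C25H3.10, an F-box protein, del-6, a sodium channel subunit, ttr-15, a transthyretin-like protein, and ZK863.8, with log2 ratios between 1.42 and 2.38. Ttr-15 averaged 442 RPKM in dpy-21(e428) XX, 374 RPKM in XO labelled mys-1(RNAi), 415 RPKM in XO vector RNAi and 115.1 RPKM in wild-type XX. In XO vector RNAi over the same wild-type libraries, these 5 genes had log2 ratios between 1.67 and 4.20.

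The 5 lowest in dpy-21(e428) XX were grd-6, a ground-like protein, acdh-1, an acyl-CoA dehydrogenase of branched-chain breakdown, msra-1, a methionine sulfoxide reductase, K07C5.13 and Y110A7A.15. Acdh-1 averaged 352 RPKM in dpy-21(e428) XX, 373 RPKM in XO labelled mys-1(RNAi), 596 RPKM in XO vector RNAi and 1136 RPKM in wild-type XX. Msra-1 averaged 218 RPKM in dpy-21(e428) XX, 225 RPKM in XO labelled mys-1(RNAi), 269 RPKM in XO vector RNAi and 686 RPKM in wild-type XX. Both genes had their highest mean in wild-type XX, and acdh-1 was also lower in the libraries labelled mys-1(RNAi) than in vector, with a log2 ratio of -0.67.

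In XO vector RNAi over wild-type XX, the highest were C25H3.10, W10C8.6, a small membrane proteolipid, C03D6.9, grsp-3, a glycine-rich secreted protein, and clec-196, a C-type lectin, with log2 ratios between 2.90 and 4.20. C25H3.10 averaged 19.6 RPKM in dpy-21(e428) XX, 63.3 RPKM in XO labelled mys-1(RNAi), 75.4 RPKM in XO vector RNAi and 3.17 RPKM in wild-type XX. The lowest were C56C10.4, the cuticle collagens col-111 and col-38, grd-6 and Y62E10A.19, a neuropeptide-like gene, between -2.16 and -1.64. Col-111 averaged 143 RPKM in dpy-21(e428) XX, 103 RPKM in XO labelled mys-1(RNAi), 78.2 RPKM in XO vector RNAi and 270 RPKM in wild-type XX. The summed level of the 4 hypodermis markers moved in the same direction, with 5534 RPKM in dpy-21(e428) XX, 5640 RPKM in XO labelled mys-1(RNAi), 4817 RPKM in XO vector RNAi and 10160.5 RPKM in wild-type XX. Sqt-3, dpy-13 and rol-6 carried this sum, whereas dpy-7, the other marker, was higher outside wild-type XX, with 287 RPKM in dpy-21(e428) XX, 323 RPKM in XO labelled mys-1(RNAi), 374 RPKM in XO vector RNAi and 230 RPKM in wild-type XX. The part of these markers in the results was not tested.

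Between the XO groups, the 5 highest domain genes in the libraries labelled mys-1(RNAi) were him-8, a zinc-finger protein that binds the X pairing centre in meiosis, ttr-50, the cuticle collagen genes dpy-14 and dpy-17, and B0205.13, a subunit of respiratory complex I, with log2 ratios between 0.97 and 1.18. Him-8 averaged 25.4 RPKM in dpy-21(e428) XX, 33.4 RPKM in XO labelled mys-1(RNAi), 14.2 RPKM in XO vector RNAi and 24.99 RPKM in wild-type XX, so the vector mean was the lowest of the 4. Dpy-17 averaged 0.769 RPKM in dpy-21(e428) XX, 38.3 RPKM in XO labelled mys-1(RNAi), 19.0 RPKM in XO vector RNAi and 0.971 RPKM in wild-type XX, present in XO and close to 1 RPKM or below in XX. The 5 lowest, grsp-3, acdh-1, Y49E10.18, C03D6.9 and F32D8.11, had log2 ratios between -0.69 and -0.57.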

How the data were processed

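Per the labels and the study's methods, ChIP-seq reads were trimmed with Trim Galore 0.3.7 and aligned to WS235 with Bowtie 1.1.1, and the authors called broad peaks with MACS2 2.1.0 on all replicates of a strain together. The deposited peak files hold positions only, with no height, score or p-value. RNA-seq libraries were not stranded, so a gene and an overlapping or antisense partner cannot be told apart. The authors aligned RNA reads with TopHat2 2.0.13, computed RPKM with Cufflinks 2.2.1, sharing out multiply mapped reads, and deposited 1 mean per group. A further deposited table holds fold changes and adjusted p-values of the authors' own DESeq2 1.6.3 comparisons and was not used.

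Peaks were intersected at 1 bp with Python 3.11.15, pandas 2.3.3 and numpy 2.4.6, and intervals were computed with scipy 1.17.1 and figures with matplotlib 3.10.9. Genes of the Ensembl release 115 annotation of WBcel235, the same assembly as WS235, were assigned to a domain by their 5′ end. Of 46170 RPKM identifiers, 299 had no match and were left out, and the X and mitochondrial chromosomes were not used for genes. Shares have Wilson 95% intervals, medians exact binomial intervals over genes or peaks, and gene densities Poisson intervals. Log2 ratios used a pseudocount of 1 RPKM, which understates ratios of low genes. Since no file used here gives values per replicate, no test was run, and depth per library is not known from the files used here. The overlap and interval procedures were tested on simulated data.

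The domains, gene lists and tests were chosen with earlier results of these data known. Named were the 10 widest domains with up to 3 genes of highest wild-type RPKM each, the domains at the limit, with least XO cover or most XO peaks, the 10 genes with most RNA, and the 5 highest and 5 lowest genes of each RNA comparison above a mean of 10 RPKM, besides genes the study mutated or depleted. Some genes that these rules name are not reported here. Other genes were named after their values were seen. The spacing limit of 500 bp and the motifs were also chosen after seeing the data. Alternatives covered the minimum width, merging of peaks, peak size, overlap, gene assignment, pseudocount, filters, fold, exons and biotypes.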

Additional observations from a re-analysis of the deposited data

How the results depend on the processing

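Of 75 alternative values, 52 stayed within the interval of the reported value, or within 1.5 times of a count. A minimum width of 15000 or 20000 bp left 369 or 205 domains, with a median XO cover of 94.3% or 94.5%, and the share of autosomal XX peak sequence in domains was 56.7% at 8000 bp, 30.7% at 15000 bp, 20.9% at 20000 bp and 49.2% without chromosome V. The median wild-type RPKM was 20.4 among genes above 1 RPKM only, and 76.2% of domain genes passed 5 RPKM. With a filter of 5 RPKM, the median log2 ratio was 0.14 for XO vector RNAi over wild-type XX and 0.016 for XO labelled mys-1(RNAi) over vector. Centred on all autosomal genes, the medians were -0.0044 for dpy-21(e428), and with the opposite sign -0.022 for XO vector RNAi and -0.0059 for XO labelled mys-1(RNAi). With a pseudocount of 0.1 RPKM, 8.24%, 20.2% and 1.93% of domain genes were past 1.5-fold in dpy-21(e428), XO vector RNAi and XO labelled mys-1(RNAi), and with a pseudocount of 1 RPKM 1.84%, 6.37% and 0.144% were past 2-fold. Without protein-coding exons the median GC content was 32.2%, and all annotated genes gave 3.93 starts per 10 kb. Merging of peaks within 500 bp changed nothing, since all lay further apart. Centring and leaving out chromosome V were chosen after seeing the data. The peaks used here are pooled over replicates and RPKM values are means, so leaving out a replicate could not be run. No paired analysis was possible because no file used here gives values per replicate. The limits are therefore those of the files used here, 1 peak list per karyotype and 1 mean per group, with which spread between libraries, peak height and depth were not analysed.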
